A study of Mus musculus with 4 samples.

Results

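Of the 15002 gene rows counted in 4 mouse medulloblastomas, 70 carry the names of sodium, potassium or calcium channel subunits (symbols beginning Scn, Kcn or Cacn), and their messenger RNA counts are described here. Its members were matched by symbol and not by their own values, and the set was chosen with earlier results of these data known. The set is wider than voltage-gated channels. Sodium channels give 3 pore-forming and 3 accessory genes, and calcium channels 7 pore genes, 3 alpha2delta genes and 4 beta subunit genes. Beside them stand 6 Cacng genes of the stargazin family, 12 genes of the classical voltage-gated potassium subunits and 4 Kcnq genes. The rest are 9 inward rectifiers (Kcnj), 6 tandem-pore background channels (Kcnk), 7 potassium channel auxiliary subunits and 6 Kcnn, Kcnma, Kcnt and Kcnu genes. Most of these last 6 encode calcium- or sodium-activated channels. The row for the sodium channel of immature axons carries the older symbol Scn2a1, falls outside the naming rule, and is given once beside the other sodium channel genes. All 4 tumours belong to 1 group, that of untreated mice at postnatal day 16 that carried hGFAP-Cre/SmoM2 together with the alleles Prkaa1fl/fl and Prkaa2fl/fl. SmoM2 is an activated form of Smoothened, the transducer of Sonic hedgehog (SHH) signals. Prkaa1 and Prkaa2 encode the catalytic subunits of AMP-activated protein kinase and are floxed. Cre is driven by the human GFAP promoter, which is active in neural precursors. The series was designed to set such tumours beside tumours with both kinase genes intact, and no sample labelled with that genotype was analysed here, so no value below is an effect of the deletion.

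Voltage-gated channels open and close with the membrane potential. Sodium channels carry the upstroke of the action potential, potassium channels end it and set the resting potential, and presynaptic calcium channels couple it to transmitter release. Pore-forming subunits are joined by auxiliary subunits that set their trafficking and gating. SHH medulloblastomas arise from cerebellar granule neuron precursors, which divide under SHH, leave the cell cycle, pass through an early neuronal state with migrating, axon-growing cells, and mature into excitable granule neurons. Stargazin, the Cacng2 product, is best known in granule neurons as a partner of AMPA-type glutamate receptors.

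The promoters of 4 channel genes that were called higher in neuronal cells are shown first. They are the 4 such genes with most UMIs among those with a single listed start. Each sequence runs from 250 bases before to 50 bases after the start listed by RefSeq (GRCm38.p6), 5′ to 3′ on the gene's strand, which is the plus strand for these 4. Cacna2d1 lies at chr5:15934441-15934740, Kcnc1 at chr7:46396218-46396517, Kcnj3 at chr2:55435720-55436019 and Kcnk1 at chr8:125994852-125995151. The GENCODE M21 annotation starts Kcnk1 at 125995170, past the end of its window. Capitals mark the letters GGGCGG, the GC box bound by Sp-family factors, and GGACAGC, a part of the element bound by the neuronal-gene repressor REST, each searched on both strands.
Cacna2d1: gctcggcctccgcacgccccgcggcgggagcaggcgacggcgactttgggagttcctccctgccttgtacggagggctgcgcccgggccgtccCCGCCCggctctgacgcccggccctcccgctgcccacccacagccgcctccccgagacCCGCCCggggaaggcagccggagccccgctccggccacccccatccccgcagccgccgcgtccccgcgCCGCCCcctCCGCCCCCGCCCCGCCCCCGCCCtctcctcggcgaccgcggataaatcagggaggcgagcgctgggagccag
Kcnc1: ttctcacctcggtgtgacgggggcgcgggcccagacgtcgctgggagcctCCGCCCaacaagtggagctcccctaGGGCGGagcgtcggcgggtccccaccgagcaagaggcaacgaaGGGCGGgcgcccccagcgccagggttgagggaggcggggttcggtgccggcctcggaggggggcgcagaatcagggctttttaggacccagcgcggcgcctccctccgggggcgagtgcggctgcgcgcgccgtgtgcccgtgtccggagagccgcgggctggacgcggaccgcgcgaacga
Kcnj3: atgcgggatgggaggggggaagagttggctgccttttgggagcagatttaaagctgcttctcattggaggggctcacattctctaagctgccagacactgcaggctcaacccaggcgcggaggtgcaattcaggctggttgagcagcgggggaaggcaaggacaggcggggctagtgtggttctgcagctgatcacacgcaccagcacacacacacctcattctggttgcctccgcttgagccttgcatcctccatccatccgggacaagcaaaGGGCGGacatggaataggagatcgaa
Kcnk1: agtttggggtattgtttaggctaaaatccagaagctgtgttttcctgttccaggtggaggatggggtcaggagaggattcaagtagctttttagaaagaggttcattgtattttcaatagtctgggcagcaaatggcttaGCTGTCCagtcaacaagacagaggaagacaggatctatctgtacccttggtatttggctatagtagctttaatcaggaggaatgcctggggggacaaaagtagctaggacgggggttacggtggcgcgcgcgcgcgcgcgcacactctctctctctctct
The Cacna2d1 window held 7 GGGCGG matches, the Kcnc1 window 3 and the Kcnj3 window 1. The Kcnk1 window held none, and 1 GGACAGC match. Its ratio of observed to expected CpG was 0.589, against 0.922 for Cacna2d1, 0.996 for Kcnc1 and 0.408 for Kcnj3. RefSeq windows were listed for 51 of the 70 channel genes (77 windows). Of these, 48.1% held GGGCGG, against 35.7% of all 32851 windows, and 9.09% held GGACAGC against 6.56%. TATAAA was in 6.49% of channel windows against 13.6% of all, and CAGATG, an E-box read by proneural factors, in 14.3% against 17.2%. Windows of nearby starts of 1 gene can overlap, and a match is a description of letters, not of a bound site.

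Single-cell libraries were made by Drop-seq, which tags the 3′ end of each captured transcript with a cell barcode and a unique molecular identifier (UMI). The 3222 barcodes with at least 500 UMIs held 3272526 UMIs. Tumours 1 to 4 gave 766, 807, 566 and 1083 barcodes with medians of 826.5, 749, 806.5 and 972 UMIs. No barcode of this depth was shared between libraries. The libraries fell into pairs. Mitochondrial genes took a median of 10.2% and 11.6% of UMIs per barcode in the first pair (tumours 1 and 2) and 2.33% and 1.79% in the second (tumours 3 and 4). The floxed genes had few UMIs, 16, 4, 3 and 5 for Prkaa1 and 10, 5, 10 and 14 for Prkaa2 in tumours 1 to 4. Counting 3′ ends leaves the loss of floxed exons unseen.

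Cells were clustered on features that left out the channel genes, and clusters were named from marker lists. Dividing cells (1166) joined a G2/M cluster of 645 cells led by Cenpf, Hmmr and Aspm and an S-phase cluster of 521 led by Hells. The early neuron-like cluster (513 cells) was led by Abca4, Pdzrn3 and Cntn2, and the late neuron-like cluster (547) by Grin2b, Vps51 and Neurod2. The 13 early-neuron markers summed higher in the late class (13830 to 19990 CPM across tumours, CPM being UMIs scaled to a total of 1000000 per tumour and class) than in the early class (10620 to 13110), so the early class is not the one where its markers peak. The 15 late-neuron markers summed to 3267 to 5939 in late and 1339 to 3847 in early cells. The non-dividing progenitor-like cluster (540) was led by Hes1 and had the weakest claim to its name. Of its 12 detected SHH-response and progenitor markers 1 was among its 50 leading genes, and their summed level was 4691 to 6202 CPM across tumours against 4450 to 5178 in dividing cells. The names were checked against other kinds of cell. Summed endothelial markers (8 genes) reached at most 72.6 CPM and summed microglial markers (11 genes) at most 189 in any of the 4 classes of any tumour. Choroid plexus markers (2 detected genes) reached at most 264 CPM, in progenitor-like cells, and red blood cell markers (4 genes) at most 220, in late cells. Astrocyte or radial glia markers (9 genes) summed to 368 to 937 CPM across tumours in dividing, 442 to 1309 in progenitor-like, 367 to 944 in early and 228 to 550 in late cells, with the pooled sum highest, at 864 CPM, in the progenitor-like class. Markers of other cerebellar neurons moved with the classes. Those of GABAergic interneurons or Purkinje cells (4 detected genes) summed to 417 to 646 CPM across tumours in dividing, 875 to 1448 in early and 495 to 757 in late neuron-like cells, with Car8 at 0 in dividing and late cells. Those of unipolar brush or nuclear neurons (3 detected genes) summed to 78.5 to 305, 269 to 872 and 368 to 894.5, with Meis2 at 0 in both neuronal classes. Their part in the channel values below was not tested. Gabra6, a receptor gene of mature granule neurons, had UMIs in late but not in early neuron-like cells. A cluster of 327 shallow barcodes led by Sntg2 stayed unnamed, with 77, 107, 31 and 112 cells in tumours 1 to 4. Its channel level was 1375 CPM, and it entered no comparison. Classes were built from the same cells, so tests below describe how the classes differ.

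All 70 channel genes were detected. Of these, 41 had a UMI in all 4 tumours, 8 in 3 tumours, 11 in 2 and 10 in 1. Together they gave 6401 UMIs. Over all these barcodes the 70 genes stood at 1956 CPM. The summed level was 2404, 2308, 1766 and 1559 CPM in tumours 1 to 4, higher in tumours 1 and 2 than in 3 and 4. Counts were concentrated. The 5 genes with most UMIs held 53.4% of channel UMIs, among them Cacna2d1 (1151 UMIs), Cacng2 (889), Kcnk1 (409) and Scn8a (386). A further 8 genes had 129 to 231 UMIs, 37 had at least 20, and 15 had under 10. These are numbers of captured 3′ ends, not scaled for length, and do not rank transcript levels between genes.

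**Figure D1:**
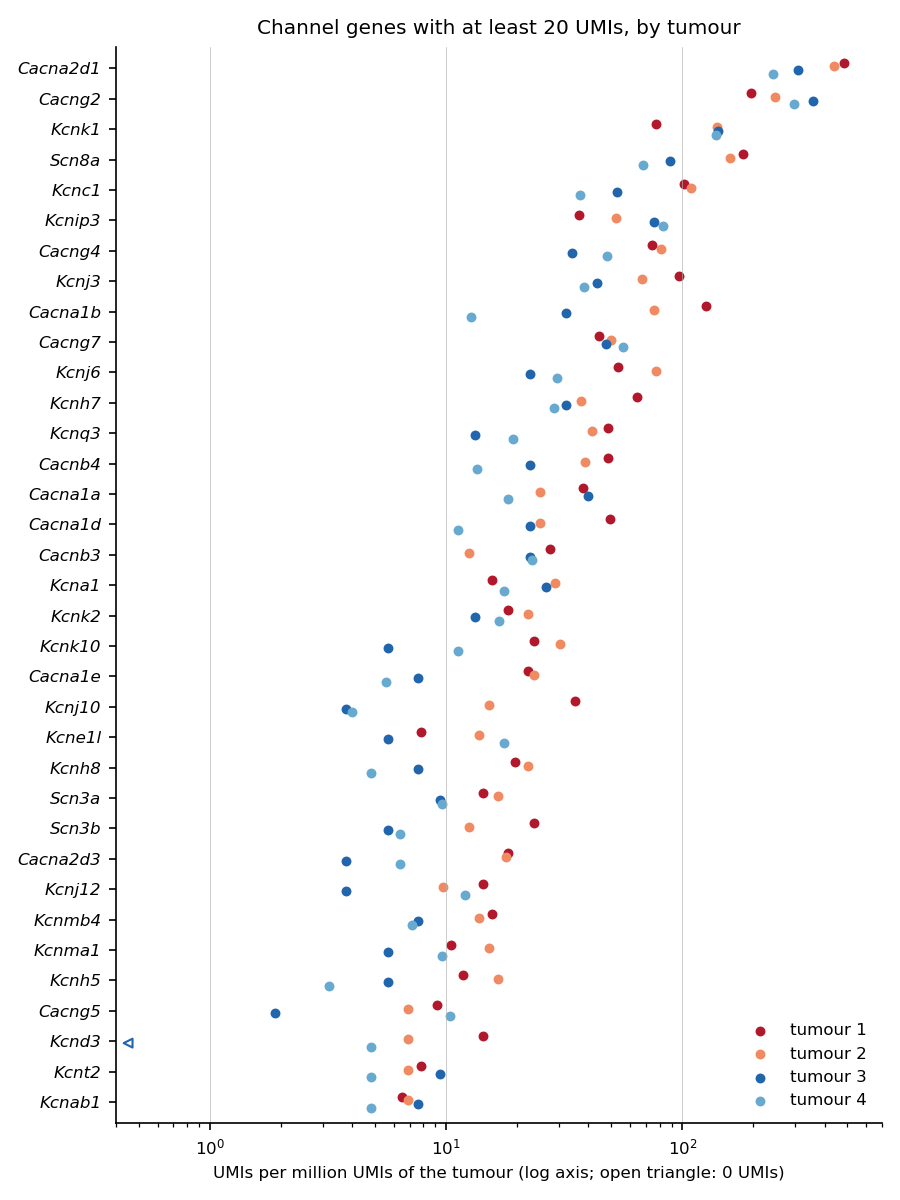
Level of 35 channel genes with at least 20 UMIs in each of the 4 tumours, in CPM of that tumour's barcodes (log axis), ordered by total UMIs. Cacna2d1 ranges from 241 to 483 and Cacna1b from 12.8 to 125, with tumours 1 and 2 above 3 and 4 for both, while Cacng2 runs the other way, and Kcnd3 had no UMI in tumour 3.

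Channel transcripts took a larger share of the RNA in neuronal than in dividing cells. The summed level was 1856, 1972, 1396 and 1211 CPM in dividing cells of tumours 1 to 4, a mean of 1609 ± 363 (SD, n = 4). In non-dividing progenitor-like cells it was 1627, 1953, 1281 and 1373 (mean 1558 ± 301). In early neuron-like cells it was 2984, 2775, 1909 and 1897 (mean 2391 ± 570), and in late neuron-like cells 4311, 3669, 3502 and 2980 (mean 3616 ± 549). Within every tumour the order was dividing below early below late. Late neuron-like cells did not overlap dividing cells across tumours, and early neuron-like cells of tumours 3 and 4 lay below dividing cells of tumour 2. The sum carries no test. The classes held unequal totals, 1420187 UMIs in dividing, 482906 in non-dividing progenitor-like, 466294 in early and 480306 in late neuron-like cells, so levels of genes with few counts are given below as CPM over the pooled class, with the UMIs behind them, and carry counting error. Of the 12 subfamilies, 10 were higher in late neuron-like than in dividing cells in all 4 tumours. The exceptions were the Cacng genes and the potassium channel auxiliary subunits. The auxiliary subunits stood at 67, 102, 128 and 97.7 CPM in dividing and 44.0, 95.8, 38.1 and 143 in late neuron-like cells.

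**Figure D2:**
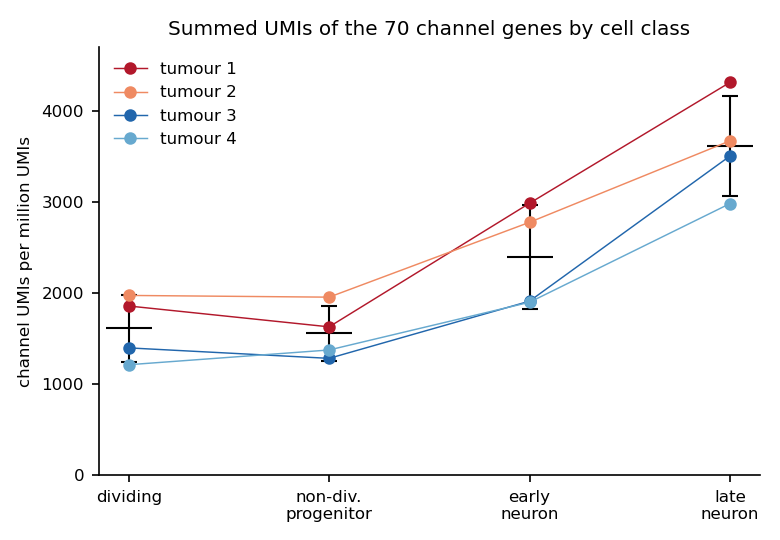
Summed CPM of the 70 channel genes in each cell class; points joined by lines are the 4 tumours, and black bars are the mean and SD over them. Each line climbs from dividing to early to late neuron-like cells, and late neuron-like cells lie between 2980 and 4311, above all 4 dividing values.

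UMI counts were summed per tumour and class and compared with edgeR's quasi-likelihood test, with the tumour as a block. The filter on low counts, which asks that any 3 sums reach 76.8 CPM, left 4301 genes, among them 13 channel genes. Against dividing cells, 10 of the 13 rose in neuronal cells (early and late weighted equally) and none fell, where 16.4% of tested genes outside the clustering features were higher and 23.7% lower. They included Cacna1a, Kcnj6, Kcnk1, Cacna1b, Kcnc1, Kcnj3, Cacna2d1, Cacng4 and Scn8a, each higher in neuronal cells of 4 of 4 tumours. Cacng7, Cacng2 and Kcnip3 did not pass. A gene could enter the test through the class where it is high, as Cacna1a did through its 4 late neuron-like sums, while Kcnh7 and Kcnq3, with more UMIs in all, stayed out. So the count over the 13 is not support for a rise of the set. Of the 13, 6 reached the filter without their neuronal sums, among them Cacna2d1, Cacng2, Kcnc1, Kcnk1 and Scn8a, and 5 of these 6 were higher (12.5% of genes that entered so). With no filter, 15 of the 70 were higher and 1 was lower, against 4.35% and 12.3% of all genes. A filter on the mean over all sums (at least 50 CPM, chosen after seeing the data) kept 12 channel genes, not Cacna1a, and 9 were higher (16.8% of all).

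In the early neuron-like class alone, 3 of the 13 rose over dividing cells (among them Kcnj6 and Cacna2d1; background 8.31% higher). From early to late neuron-like cells 6 of the 13 rose (Cacna1a, Kcnc1, Kcnk1, Kcnj3, Cacna1b and Cacna2d1; background 2.8% higher). With no filter these counts were 4 and 9 of 70 (1.69% and 0.682% of all). Among the 6 that entered without their neuronal sums they were 2 and 3 (6.5% and 2.5% of genes that entered so). Between non-dividing progenitor-like and dividing cells edgeR called none of the 13 (background 5.12% in either direction), 1 was below an unadjusted p of 0.05, and DESeq2 called 0. Within the library pairs, 8 of 14 tested channel genes were higher in neuronal cells in tumours 1 and 2 alone (10.6% of all), and 7 of 12 in tumours 3 and 4 alone (13.3% of all).

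**Figure D3:**
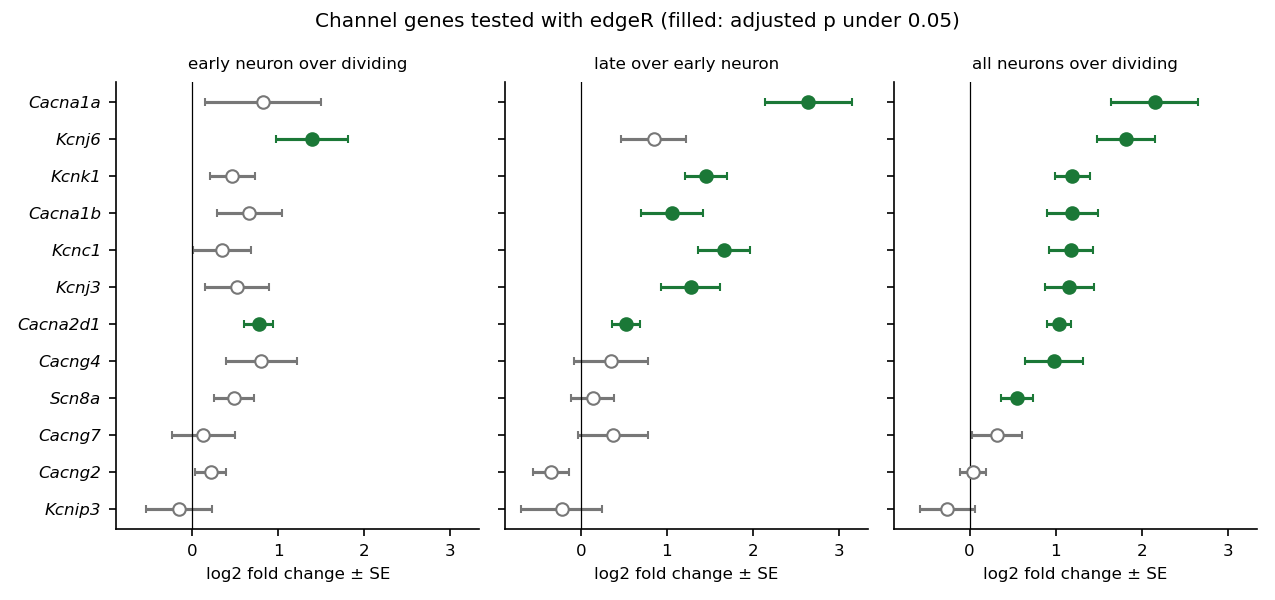
Log2 fold change with its standard error for 12 channel genes that edgeR tested, for early neuron-like over dividing cells, late over early neuron-like cells and all neuronal over dividing cells; filled green points have an adjusted p under 0.05. Cacna2d1 is filled in all 3 panels, and Cacna1a, at 2.65, has the largest late-over-early value shown.

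Among calcium channel pores, Cacna1a was higher in late than in early neuron-like cells. Cacna1a encodes the pore of P/Q-type channels, which trigger transmitter release at cerebellar synapses. It stood at 10.1, 10.9, 8.26 and 9.93 CPM in dividing cells of tumours 1 to 4, at 34.9, 8.07, 25.3 and 13.5 in early neuron-like cells, and at 147, 105, 165 and 87.1 in late neuron-like cells. Late values lay above all values of both other classes. The change from early to late was 2.65 ± 0.50 on the log2 scale (SE; edgeR adjusted p = 0.000137, higher in 4 of 4 tumours), on 58 UMIs against 9. From dividing to early neuron-like cells it was 0.83 ± 0.67 (edgeR adjusted p = 0.419), a change not detectable at this depth. In tumours 1 and 2 alone the late-over-early change was 2.60 (edgeR adjusted p = 0.107).

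Cacna1b, the N-type pore, is also presynaptic. Its levels were 111, 61.7, 16.5 and 4.97 CPM in dividing cells and 242, 192, 140 and 37.3 in late neuron-like cells of tumours 1 to 4. The classes overlapped across tumours, with tumours 1 and 2 high in both, and late exceeded dividing within each tumour. Neuronal over dividing cells gave 1.19 ± 0.30 (log2; edgeR adjusted p = 0.000798, 4 of 4 tumours). Its late-over-early call was at the threshold (1.06 ± 0.36, edgeR adjusted p = 0.04999), and was lost when any 1 tumour was left out (adjusted p from 0.0960 to 0.224), with DESeq2 (adjusted p = 0.0648) and with doublets kept (0.68, adjusted p = 0.283). Cacna1e, the R-type pore, had too few UMIs for the filter, with 0, 2, 0 and 2 in dividing cells and 12, 9, 3 and 3 in late neuron-like cells. With no filter on low counts it was called in both contrasts (2.44 for neuronal over dividing, edgeR adjusted p = 0.0143). The L-type pore gene Cacna1d was at 25.4 CPM in dividing and 43.7 in late neuron-like cells (36 and 21 UMIs) and was not called with no filter.

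Cacna2d1 encodes an alpha2delta subunit, the gabapentin-binding protein that carries calcium channels to the surface, and had the most UMIs of the set. Its gene spans chromosome 5 from 15934691 to 16374511 on the plus strand (GENCODE M21, GRCm38). It stood at 395, 370, 260 and 167 CPM in dividing cells, 750, 637, 329 and 357 in early neuron-like cells and 851, 680, 698 and 597 in late neuron-like cells. Late values lay above all dividing values, and early values of tumours 3 and 4 fell within the dividing range. It rose from dividing to early (0.77 ± 0.17, log2; edgeR adjusted p = 0.000256, 4 of 4 tumours). The further change to late neuron-like cells was 0.52 ± 0.17 (edgeR adjusted p = 0.0353), and lost its call without tumour 3 (0.38, edgeR adjusted p = 0.273) and without tumour 4 (0.42, edgeR adjusted p = 0.268). It also lost it with cells limited to 10% mitochondrial UMIs (0.24, edgeR adjusted p = 0.548), with doublets kept (0.28, edgeR adjusted p = 0.353) and at Leiden resolution 2 (0.11, edgeR adjusted p = 0.870). It was 0.20 in tumours 1 and 2 alone (edgeR adjusted p = 0.728) and 0.96 in tumours 3 and 4 alone (edgeR adjusted p = 0.000861). Cacna2d3, a relative, was at 13.4 CPM in dividing, 15.01 in early and 18.7 in late neuron-like cells (19, 7 and 9 UMIs).

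Beta subunits bind the channel from the cytoplasm. Their summed level was 36.9, 39.9, 37.2 and 36.4 CPM in dividing cells of tumours 1 to 4, and 183, 115, 102 and 99.6 in late neuron-like cells, with no overlap and no test. Cacnb4, the beta subunit paired with Cacna1a at cerebellar synapses, was at 16.9 CPM in dividing, 8.58 in early and 77.0 in late neuron-like cells (24, 4 and 37 UMIs). Its late-over-early change with no filter on low counts was 3.07 (edgeR adjusted p = 0.000141), and another annotated gene overlaps its last 2 kb, so their reads cannot be told apart without strand. Cacnb3 was at 13.4, 32.2 and 47.9 CPM in the same classes (19, 15 and 23 UMIs).

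The stargazin family was mixed. Cacng2, the AMPA receptor partner, stood at 211, 298, 335 and 275 CPM in dividing cells, 168, 264, 352 and 376 in non-dividing progenitor-like cells, 279, 210, 556 and 357 in early and 176, 220, 330 and 305 in late neuron-like cells. The classes overlapped throughout. Neuronal over dividing cells gave 0.04 ± 0.15 (log2; edgeR adjusted p = 0.852), and late over early gave -0.35 ± 0.21 (edgeR adjusted p = 0.344). Cacng7 gave 0.32 ± 0.29 for neuronal over dividing cells (edgeR adjusted p = 0.410). Cacng4 rose in neuronal cells by 0.98 ± 0.34 (edgeR adjusted p = 0.0159, 4 of 4 tumours), a call lost without tumour 1 (0.79, adjusted p = 0.0927) or tumour 3 (0.80, adjusted p = 0.0837), and with cells limited to 10% mitochondrial UMIs (0.64, adjusted p = 0.225) or doublets kept (0.68, adjusted p = 0.105). Cacng5 was at 8.45 CPM in dividing, 18.6 in non-dividing progenitor-like and 4.29 in early neuron-like cells (12, 9 and 2 UMIs), and had 0 UMIs in late ones, which allows up to 6.25 CPM (3 counts over the total). Cacng3, named here after its values were seen because its 16 UMIs fall under the naming minimum, was at 8.45 and 4.14 CPM in dividing and progenitor-like cells (12 and 2 UMIs), with 0 UMIs in both neuronal classes, which allows up to 6.43 CPM in early and 6.25 in late ones. It was the 1 channel gene lower in neuronal cells when no filter was applied (edgeR adjusted p = 0.0497).

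**Figure D4:**
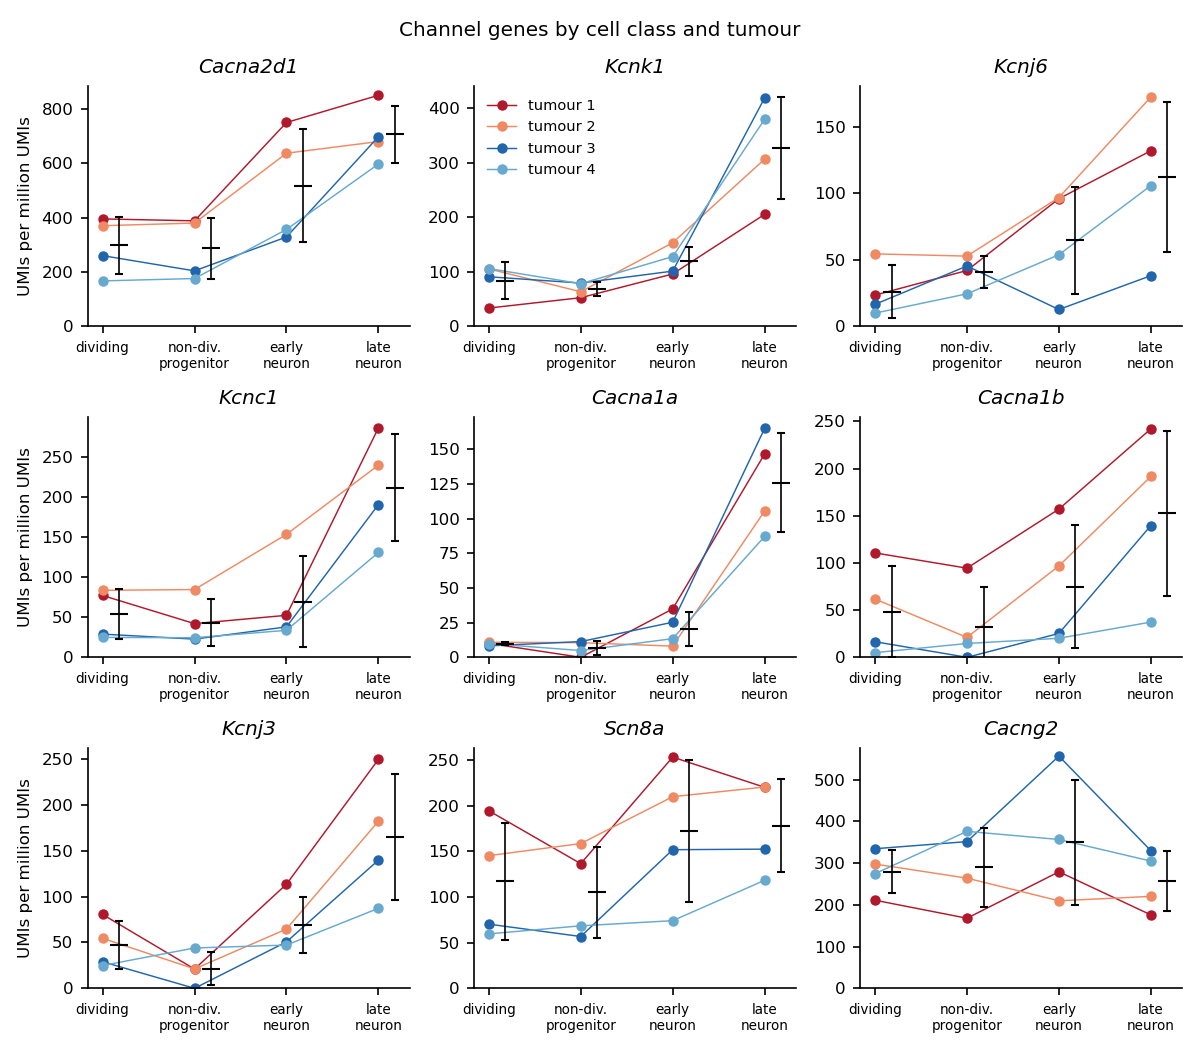
Level of 9 channel genes in CPM by cell class, each line a tumour and black bars the mean and SD over 4 tumours; panels have their own vertical scales from 0. Cacna1a and Kcnk1 are highest in the late neuron-like class without overlap with the others, the early Kcnc1 value of tumour 2 lies above the late value of tumour 4, Cacna2d1 is higher in the early than in the dividing class of each tumour, and Cacng2 shows no shared direction.

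Sodium channel counts came mostly from 1 gene. Scn8a, the pore of the axon initial segment and nodes, stood at 194, 145, 70.2 and 59.6 CPM in dividing cells of tumours 1 to 4 and at 220, 220, 152 and 118 in late neuron-like cells. The classes overlapped, and tumours 1 and 2 were about as high in dividing cells as tumours 3 and 4 in late neuron-like cells. It was higher in neuronal cells of 4 of 4 tumours by 0.55 ± 0.19 (log2; edgeR adjusted p = 0.0152), and lost its call without tumour 3 (0.46, adjusted p = 0.0836) or tumour 4 (0.53, adjusted p = 0.0679) and with no filter on low counts (0.43, adjusted p = 0.149). In tumours 1 and 2 alone it was 0.38 (edgeR adjusted p = 0.249), and in tumours 3 and 4 alone 0.85 (edgeR adjusted p = 0.0308). Between early and late neuron-like cells it differed by 0.14 ± 0.25 (edgeR adjusted p = 0.816). Scn3a, a pore gene of embryonic brain, was at 2.82 CPM in dividing, 17.2 in early and 24.98 in late neuron-like cells (4, 8 and 12 UMIs). With no filter on low counts it was called (2.38 for neuronal over dividing, edgeR adjusted p = 0.0150). Scn2a1 was at 2.82, 23.6 and 27.1 CPM in these classes (4, 11 and 13 UMIs). The accessory subunit gene Scn3b was at 6.34, 23.6 and 8.33 CPM (9, 11 and 4 UMIs).

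Among the voltage-gated potassium channel genes described here, Kcnc1 was higher in late than in early neuron-like cells. Kcnc1 encodes a Shaw-type subunit that opens at high voltage, closes fast and lets neurons fire at high rates. It stood at 77.1, 83.5, 28.9 and 24.8 CPM in dividing, 52.4, 153, 37.9 and 33.6 in early and 286, 240, 190 and 131 in late neuron-like cells. Tumour 2 was high among the early values, above the late value of tumour 4. Its early-over-dividing change was 0.35 ± 0.34 (edgeR adjusted p = 0.511) and its late-over-early change 1.67 ± 0.31 (edgeR adjusted p = 8.81e-05, 4 of 4 tumours).

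Other voltage-gated potassium genes had lower counts. Kcna1, the Shaker-type channel of axons, had 0, 2, 1 and 6 UMIs in dividing cells of tumours 1 to 4 and 9, 9, 6 and 11 in late neuron-like cells, or 66.0, 86.2, 76.1 and 68.5 CPM. Without a filter its late-over-early change was 2.48 (edgeR adjusted p = 0.00325). Kcnq3, a subunit of the M-current, which damps repetitive firing, was at 36.6 CPM in dividing, 19.3 in early and 39.6 in late neuron-like cells (52, 9 and 19 UMIs). Of the ether-a-go-go genes, Kcnh7 was at 39.4, 34.3 and 45.8 CPM in these classes (56, 16 and 22 UMIs). Kcnh8 was at 6.34, 23.6 and 12.5 CPM (9, 11 and 6 UMIs), and Kcnh5 at 13.4, 4.29 and 2.08 (19, 2 and 1 UMIs). Kcnh5 gave a pooled ratio of neuronal to dividing cells of 0.237 (exact 95% interval 0.0449 to 0.805, counting error only). Kcnd3, an A-type subunit, had 22 UMIs in all.

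Inward rectifiers and background channels are not gated by voltage in the classical sense, and set the resting potential. Kcnj3 and Kcnj6 encode partner subunits of the G protein-gated channel that transmitters open. Kcnj6 stood at 23.5, 54.5, 16.5 and 9.93 CPM in dividing and 132, 172, 38.1 and 106 in late neuron-like cells of tumours 1 to 4. The classes overlapped across tumours through tumour 3, and late was above dividing within each. Neuronal over dividing cells gave 1.82 ± 0.34 (log2; edgeR adjusted p = 1.31e-05, 4 of 4 tumours). Early over dividing gave 1.40 ± 0.42 (edgeR adjusted p = 0.0104, 3 of 4 tumours), a call lost without tumour 1 (1.20, adjusted p = 0.110) or tumour 4 (1.11, adjusted p = 0.122). Kcnj3 stood at 80.4, 54.5, 28.9 and 24.8 in dividing, 113, 64.5, 50.6 and 47.1 in early and 249, 182, 140 and 87.1 in late neuron-like cells, so late lay above all dividing values. Its late-over-early change was 1.28 ± 0.34 (edgeR adjusted p = 0.00929, 4 of 4 tumours), lost without tumour 1 (1.33, adjusted p = 0.0629), with doublets kept (0.99, adjusted p = 0.0723) and at Leiden resolution 2 (0.73, adjusted p = 0.273). For Kcnj6 that change was 0.85 ± 0.38 (edgeR adjusted p = 0.170). A predicted gene overlaps the last 2 kb of Kcnj6, and the same holds for Kcnk1. Another annotated gene also overlaps the last 2 kb of Cacna1d, Kcnh7, Kcnmb4, Kcnt2 and Kcnj13. Reads of such pairs cannot be told apart where counting ignored strand, which the sources used here do not state.

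Kcnk1, a weakly conducting tandem-pore background channel, went against the pattern of the library pairs. It stood at 33.5, 105, 90.9 and 106 CPM in dividing, 96.0, 153, 101 and 128 in early and 205, 307, 419 and 380 in late neuron-like cells, with tumour 1 the lowest in each of these classes. Late values lay above all others. The late-over-early change was 1.46 ± 0.24 (log2; edgeR adjusted p = 1.42e-05, 4 of 4 tumours), larger in tumours 3 and 4 alone (1.82) than in tumours 1 and 2 alone (1.10, edgeR adjusted p = 0.102), a difference not tested. Early over dividing gave 0.47 ± 0.26 (edgeR adjusted p = 0.207). Within dividing cells it was at 35.4, 157, 93.0 and 137 CPM in the G2/M cluster and 31.0, 46.7, 88.4 and 56.0 in the S-phase cluster of tumours 1 to 4, with no test. Kcnk2, a mechanically gated relative, was at 3.52 CPM in dividing, 12.9 in early and 60.4 in late neuron-like cells (5, 6 and 29 UMIs), and Kcnk10 at 10.6, 17.2 and 49.97 (15, 8 and 24 UMIs). Without a filter Kcnk2 was called for late over early (2.21, edgeR adjusted p = 0.0298).

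Among calcium-activated channels, Kcnma1, the large-conductance channel that shortens spikes, was at 4.93 CPM in dividing, 6.43 in early and 43.7 in late neuron-like cells (7, 3 and 21 UMIs), and was called for late over early without a filter (2.69, edgeR adjusted p = 0.0443). Its accessory subunit Kcnmb4 was at 6.34, 19.3 and 16.7 CPM (9, 9 and 8 UMIs), and sodium-activated Kcnt2 at 3.52, 15.01 and 6.25 (5, 7 and 3 UMIs). Of the auxiliary potassium subunits 1 was tested and did not pass. Kcnip3, a calcium sensor that binds A-type channels and also acts in the nucleus, stood at 36.9, 65.4, 95.0 and 61.2 CPM in dividing and 22, 47.9, 25.4 and 87.1 in late neuron-like cells. The classes overlapped, and the neuronal-over-dividing value was -0.26 ± 0.32 (log2; edgeR adjusted p = 0.545, higher in 1 of 4 tumours). Kcne1l was at 14.8, 6.43 and 10.4 CPM in dividing, early and late classes (21, 3 and 5 UMIs) and Kcnab1 at 7.04, 4.29 and 6.25 (10, 2 and 3 UMIs). Kcnj12, an inward rectifier, was at 8.45, 21.4 and 12.5 CPM (12, 10 and 6 UMIs). The other 33 channel genes had fewer than 20 UMIs each.

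Shares of cells with a UMI were compared at equal depth, since dividing cells were deeper (median 1041 UMIs against 766 in early and 764 in late neuron-like cells). After thinning each cell to 500 UMIs, Cacna2d1 was seen in 12.9% of dividing cells (150 of 1166), 23.0% of early and 26.5% of late neuron-like cells (24.2%, 34.1% and 38.4% before thinning). Per tumour, the late share was 31.4, 28.8, 22.8 and 22.6%, above the dividing shares of 18.5, 14.8, 13.0 and 7.88%. Kcnk1 was seen in 4.03% of dividing, 5.85% of early and 14.4% of late neuron-like cells (9.09%, 9.36% and 23.0% before thinning). As a reference for free RNA, 49 cells of the microglia-like cluster and of the unnamed cluster led by Rgs5, with Cldn5 and Flt1 among its leading genes, with a median of 1196 UMIs, had no UMI of Cacna2d1, Kcnk1 or Scn8a, thinned or not. Taken as 3 counts over the total, 0 of 49 cells allows a share of cells with a UMI of up to 6.12%. The Kcnk1 shares of dividing and early neuron-like cells and the Scn8a share of dividing cells lay below that limit, so they are not shown to exceed free RNA. Over the 72002 UMIs of these cells, 0 allows up to 41.7 CPM. Free RNA belongs to a library, and by tumour the 18, 17, 6 and 8 reference cells allow shares of up to 16.7, 17.6, 50 and 37.5%, and up to 109, 159, 376 and 171 CPM. The late Kcnk1 shares of 8.5, 13.6, 19.8 and 17.3% lay below these limits in each tumour, and those of Cacna2d1 lay above them in tumours 1 and 2 only, so the shares alone do not set the late class apart from free RNA in every library. Late neuron-like levels of Cacna2d1 and Kcnk1 lay above these limits in each tumour, and those of Scn8a in tumours 1 and 2 but not in 3 and 4. Cacna1a had 3 UMIs there, all in the microglia-like cluster, or up to 122 CPM by the upper exact bound over both clusters, above its late neuron-like level in tumours 2 and 4.

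Between non-dividing progenitor-like and dividing cells, no channel gene passed. Cacna2d1 differed by -0.07 ± 0.19 (edgeR adjusted p = 0.921) and Scn8a by -0.13 ± 0.26 (edgeR adjusted p = 0.877).

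Some channel genes had their highest CPM outside the tumour lineage classes, though most UMIs of the first 3 named here came from within those classes. The oligodendrocyte-like cluster (47 cells, 53600 UMIs) held channel UMIs at 5149, 2877, 2372 and 2490 CPM in tumours 1 to 4, above the late neuron-like value in tumour 1 and below it in the others. Cacng4 had 38 of its 194 UMIs there, 14, 5, 1 and 18 in tumours 1 to 4, or 709 CPM, a pooled ratio to late neuron-like cells of 8.51 (exact 95% interval 5.31 to 13.6, counting error only). Kcna1 had 0, 5, 5 and 3 UMIs (ratio 3.33, 1.62 to 6.45) and Scn3a 0, 6, 2 and 4 (ratio 8.96, 3.68 to 21.8). Cacnb4 had 5, 1, 1 and 2 UMIs there, or 168 CPM (ratio 2.18, 0.925 to 4.60). Cacna1a and Kcnj6 had 0 UMIs in these 47 cells, which allows up to 56.0 CPM (3 counts over the total). The 10 oligodendrocyte markers summed to 446 CPM in dividing, 742 in early and 554 in late neuron-like cells. Mog was at 0 in both neuronal classes and Sox10 in the late one. Their part in the neuronal values was not tested.

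An unnamed cluster of 19 cells led by Ttr, a gene abundant in choroid plexus, with Enpp2 and Clu, held 22 of the 45 UMIs of Kcnj10, the glial inward rectifier that buffers potassium. Of these 22, 20 came from tumour 1, and late neuron-like cells had 0. Kcnj13, named here after its values were seen, had 10 of its 12 UMIs in this cluster, all from tumour 2. Kcnk2 had 8 of its 58 UMIs in it, 7 of them from tumour 1, or 176 CPM against 60.4 in late neuron-like cells. The cluster had no cell in tumour 3 and a median mitochondrial share of 15.5%. The microglia-like cluster (22 cells) held 504 channel CPM and the Rgs5-led cluster (27 cells) 199, the lowest of the named or unnamed clusters.

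**Figure D5:**
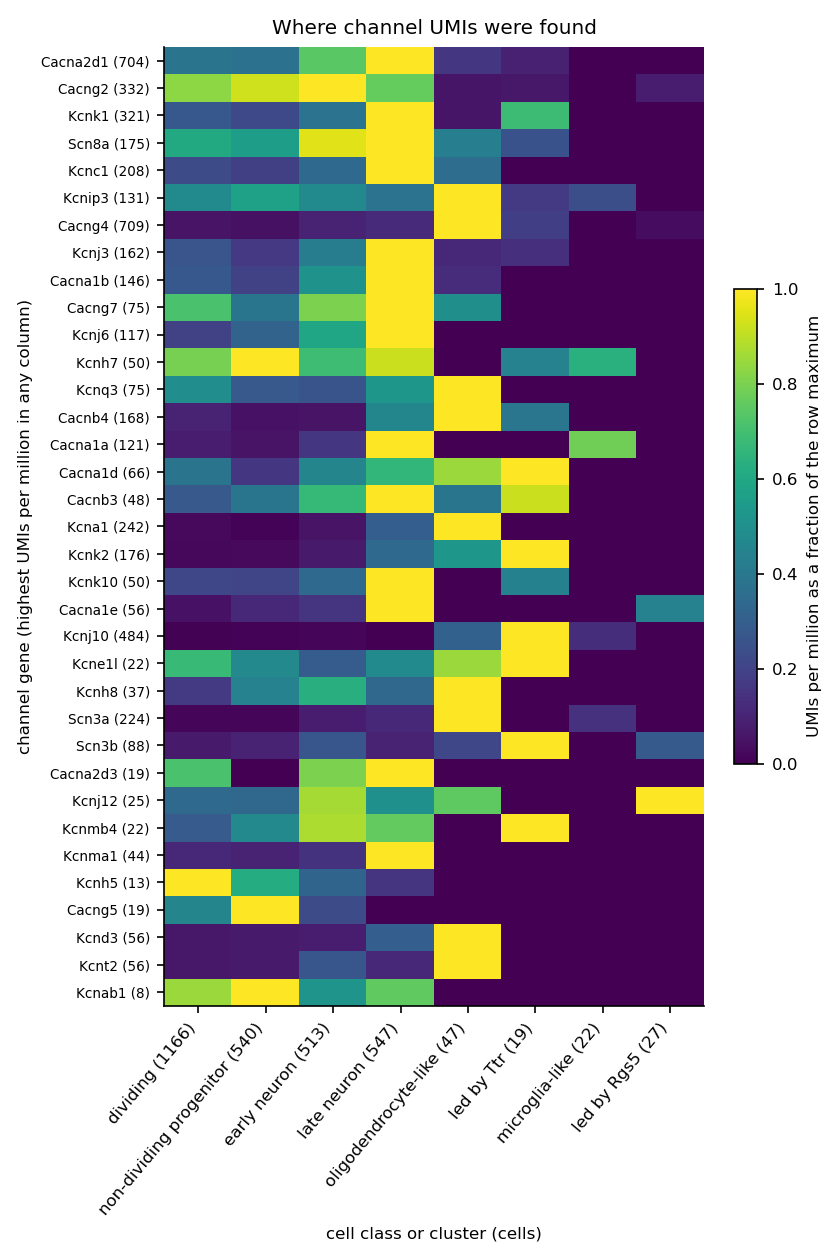
Level of 35 channel genes with at least 20 UMIs in 8 cell classes or clusters, as CPM divided by the row's maximum (given in brackets beside each gene; cell numbers are in brackets under the columns). Cacna2d1, Kcnk1, Kcnc1, Kcnj3 and Cacna1a peak in late neuron-like cells, Cacng4, Kcna1 and Scn3a peak in oligodendrocyte-like cells, and Kcnj10 in the cluster led by Ttr; rows near the bottom rest on few UMIs.

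Some channel subfamilies differed between the pairs of libraries within classes, and others did not. In dividing cells the Cacna1 pores summed to 191, 116, 49.6 and 24.8 CPM in tumours 1 to 4, and the Scn pores to 201, 156, 70.2 and 61.2. Beta subunits were flat there, and the Kcnk and Cacng genes were lowest in tumour 1, at 57.0 and 305 CPM. Over all barcodes, 31 of the 37 genes with at least 20 UMIs were higher in tumours 1 and 2 than in 3 and 4, against 46.9% of all genes. Their median log2 ratio was 0.83, against -0.08. Cacna1b had a ratio of 2.45. That of Kcnj10 was 2.70 and fell to 1.49 without the Ttr-led cluster, which held 20 of its 27 UMIs in tumour 1. That of Kcnk2 turned from 0.36 to -0.05 without the same cluster. Over all barcodes the 6 lower genes were Kcnip3, Cacng2, Kcne1l, Kcnk1, Cacnb3 and Cacng7. The median genomic span of the 37 genes was 159 kb, against 24.1 kb for 10092 genes. Across the 37 genes the ratio rose with the span (Spearman's rho 0.40), as it did across all genes (0.42). These are descriptions across genes of the same 4 libraries, and genes are not independent. The mitochondrial share differed between the same pairs, and its part in the ratio was not tested.

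Genes that work with the channels were read in the same fit. Of 20 partners at the axon initial segment and channel-associated proteins, 9 were tested and 6 rose in neuronal over dividing cells, where 16.4% of tested genes outside the clustering features were higher. Nfasc, which anchors the initial segment, rose by 4.17 ± 0.64 (log2; edgeR adjusted p = 2.95e-07), Ank2 by 2.02 ± 0.16 (edgeR adjusted p = 7.79e-16), Nrcam by 1.55 ± 0.18 (edgeR adjusted p = 1.96e-10) and Ank3, the organizer of sodium channel clusters, by 1.44 ± 0.12 (edgeR adjusted p = 1.04e-14), each in 4 of 4 tumours. Nedd4l rose by 1.15. Of 7 tested ion pumps, 4 rose, among them Atp1b3, Atp2b2 and Atp2b1 by 0.73, 0.63 and 0.32 (log2). Of 10 tested repressor and splicing regulators of channel genes, Rbfox3, Rbfox2, Nova2, Rcor2, Rbfox1 and Nova1 rose by 0.76 to 1.58 and Ptbp1, which represses neuronal exons, fell by 1.70 (SE 0.35; edgeR adjusted p = 5.67e-05, lower in 4 of 4 tumours). The 1 tested gene among other cation channels was not called. Rbfox3 is among the markers used to name the late class. Early over dividing cells, 5 of 9 partners, 1 of 7 pumps and 4 of 10 regulators were higher (8.31% of all), and Ptbp1 was lower. Late over early, 5 of 9 partners, 2 of 7 pumps and 2 of 10 regulators were higher (2.8% of all). Like the channel genes, these lists were kept out of the clustering features, and their members could enter the test through the class where they are high, as Nfasc did through its late sums. These counts are therefore no support for a rise of a list. Among members that reached the filter without their neuronal sums, 5 of 8 partners, 3 of 6 pumps and 3 of 6 regulators were higher in neuronal over dividing cells (12.5% of genes that entered so).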

How the data were processed

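Drop-seq libraries of 4 tumours were deposited as whole-number UMI counts per gene and barcode, 1 table per tumour, with no normalization. The submitters' processing notes name STAR and mm10. The counting software, strand setting and barcode filter are not given in the sources used here. Another 6 tables, with 11203 cell columns, could be tied to no labelled sample and stayed unused. Barcodes with at least 500 UMIs were kept, and 14 doublets (0.435%) called by Scrublet (scanpy 1.11.5) were removed before clustering. Counts were scaled to 10000 per cell, log-transformed and centred within library, and 2000 variable features without channel genes, 30 components, 15 neighbours per cell, clustered by the Leiden method (leidenalg 0.10.2, resolution 1), gave the classes. Names required 3 or more detected markers, 1 or more of them among the 50 leading genes, and an average log2 fold over the list no lower than 0.4. Sums of at least 20 cells per tumour and class were fitted in 1 model with edgeR 4.0.16 (TMM, filterByExpr, quasi-likelihood test, Benjamini-Hochberg at 0.05 over the genes tested), with the tumour as a block, since class sums of 1 tumour share their animal. Departures of such sums from their class means had pairwise r of 0.43 to 0.78. Standard errors are the log2 fold change over the square root of F. DESeq2 1.42.0, other scalings, filters, class definitions and left-out tumours were alternatives. On simulated counts for neurons versus dividing cells (4304 genes) the test recovered 86% of 2-fold rises, 64% of 2-fold falls and 100% of 4-fold changes, and 3.85% of calls were false. Background shares leave out the clustering features. Named were the channel genes that passed the filter, those with at least 20 UMIs, and the most counted of each subfamily. Other lists were named when called. The channel genes and lists were chosen with earlier results of these data known. Intervals (scipy 1.17.1) are exact at 95% and cover counting error only. CPM divide by the total UMIs of the class or tumour. Classes were defined from the cells that were then compared, so p-values describe how classes differ. Some tested genes enter the counts and sums but are not reported here by name, and figures leave them out.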

Additional observations from a re-analysis of the deposited data

Results flagged for a closer look

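The level of Kcnk1 over all barcodes of at least 500 UMIs was 77.0 CPM in tumour 1, against 140, 142 and 139 in tumours 2, 3 and 4, so that the lowest tumour lay far from the others. In dividing cells tumour 1 was also lowest, at 33.5 CPM against 105, 90.9 and 106, a gap that the screen below did not mark. In late neuron-like cells the Kcnk1 values were 205, 307, 419 and 380, without such a gap. Levels of 54 genes or sums over 4 tumours were screened and 1 stood out, and chance alone marks about 1 in 20 such groups.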

How the results depend on the processing

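With edgeR and no replicate block, that is, without pairing the sums of a tumour, fewer genes were called: 580 in place of 1837 for neuronal over dividing cells, 241 in place of 983 for early over dividing, 17 in place of 403 for late over early and 69 in place of 268 for non-dividing progenitor-like over dividing, with 4, 1 and 1 channel genes in the first 3. Tumours 1 and 2 alone gave 971, 517, 90 and 140 genes, and 3 channel genes for late over early. Leaving out 1 tumour at a time gave 645 (without tumour 4) to 982 genes for early over dividing and 205 (without tumour 4) to 435 for late over early, where leaving out tumour 3 gave 251. No filter on low counts gave 16 channel genes for neuronal over dividing cells. For early over dividing, resolution 0.5 gave 2544 genes and 17 channel genes, no centring within library 2304 and 14, and classes by marker share 2256 and 17, with 7 channel genes at resolution 2 and 7 at a minimum of 1000 UMIs. In these settings, most neuronal cells fell in the early class. For late over early, resolution 2 gave 184 genes and 3 channel genes, and keeping doublets 3 channel genes. Classes by marker share gave 1 channel gene for progenitor-like over dividing cells. The early neuron-like channel sum was 3177 CPM at a minimum of 1000 UMIs, 3109 at resolution 0.5 and 3046 without centring. DESeq2 called 285 genes for late over early, 68.1% of them higher, against 54.8% with edgeR. The sign turned for 2 genes that were not called in neuronal over dividing cells. Cacng2 was -0.086 with no filter, -0.22 in tumours 1 and 2 alone and -0.029 to 0.22 with 1 tumour left out. Kcnip3 was 0.15 in tumours 3 and 4 alone and -0.10 to 0.11 without tumour 1, 2 or 3, and without tumour 4 it did not reach the filter and was not tested. Some of these settings had fewer samples, or merged or redrawn classes, and the cause of the changes was not tested. Neuronal-over-dividing and late-over-early comparisons could not be fitted at resolution 0.5, without centring, with classes by marker share or at a minimum of 1000 UMIs, where the late class was too small. At these depths, 33 of the 70 channel genes had under 20 UMIs, and the filter left 13 for the test.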
